A study of Rattus norvegicus with 9 samples.

Results

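Fractures treated with a magnesium-alendronate gel were compared with fractures treated with an alendronate gel, over all genes of the deposited count table. The comparison used 6 of the 9 libraries of the study, 3 of the Mg-ALN gel group and 3 of the ALN gel group, chosen by their sample titles. The tissue was the middle end of a rat femoral fracture, and poly-A RNA was sequenced. Every group received the gel, which the study's title describes as an injectable bone adhesive. The ALN gel group had the gel with ALN, the bisphosphonate alendronate. In the Mg-ALN gel group the gel held a metal-organic framework, a porous solid of metal ions and linking molecules, made of magnesium and ALN. The third group had the gel alone, and its 3 libraries served to estimate the spread and appear here as values only. The labels give no strain, age, sex, dose or time after fracture, and the study's title places the work in osteoporotic fracture repair. They also do not say whether libraries of a group came from separate animals, so p-values measure only how far these samples spread, and part of that may be technical.

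Alendronate is a nitrogen-containing bisphosphonate. It binds to bone mineral, is taken up by osteoclasts, the cells that resorb bone, and inhibits farnesyl diphosphate synthase in the mevalonate pathway, which starves small GTPases of the lipid anchors they need. Osteoclasts resorb bone by pumping acid through a vacuolar proton pump (V-ATPase) and by secreting proteases such as cathepsin K. Magnesium is a cofactor of many enzymes and enters cells through channels such as TRPM7. The study's stated subject is sclerostin (Sost), fibrosis and signalling through TGF-β, and this comparison addresses what differed between the Mg-ALN gel and the ALN gel. These gels differ both in magnesium and in the form of ALN, which the Mg-ALN gel held as a framework. The labels give no dose, so magnesium, form and amount of ALN cannot be told apart.

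The 6 libraries held 13750327 to 18763270 counts. Genes of the mitochondrial genome took 39.5%, 15.6% and 7.61% of the counts in ALN gel libraries 1, 2 and 3 against 11.2%, 10.6% and 31.6% in Mg-ALN gel. ALN gel 1 and Mg-ALN gel 3, the highest of their groups, are called the mitochondria-rich pair, and results that differ without this pair are given as such. Mg-ALN gel library 1 stood apart from the other 8 libraries on the first 2 principal components of log2 CPM and had the lowest number of detected genes, 16631 against 17143 to 19138 in the other 5 libraries of the comparison. Values below are CPM, counts per 1000000 counts of the scaled library, in the order of libraries 1, 2 and 3, and where 2 sets of values stand against each other the ALN gel libraries come first. Groups are said to overlap where any library of the lower group exceeds any library of the higher one, and the groups of a gene whose values are printed did not overlap unless the text says so. Fold changes are log2 values of Mg-ALN gel minus ALN gel, with n = 3 in each group. In bulk tissue, fewer cells of a type and less RNA per cell cannot be told apart.

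Of 15460 genes tested, edgeR's quasi-likelihood test called 0% at an adjusted p under 0.05, and the lowest adjusted p was 0.217. DESeq2 called 56 genes higher (0.362%) and 122 lower (0.789%) in Mg-ALN gel at the same threshold, and limma-voom with quality weights called 2. At an unadjusted p under 0.05 by edgeR, 581 genes were higher (3.76%) and 840 lower (5.43%). All 3 Mg-ALN gel libraries lay above all 3 ALN gel libraries for 1045 genes (6.76%) and below them for 1510 (9.77%). The median fold change of all genes was −0.04. The counts of members below are to be read against these shares, and no list received a test of its own.

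**Figure D1:**
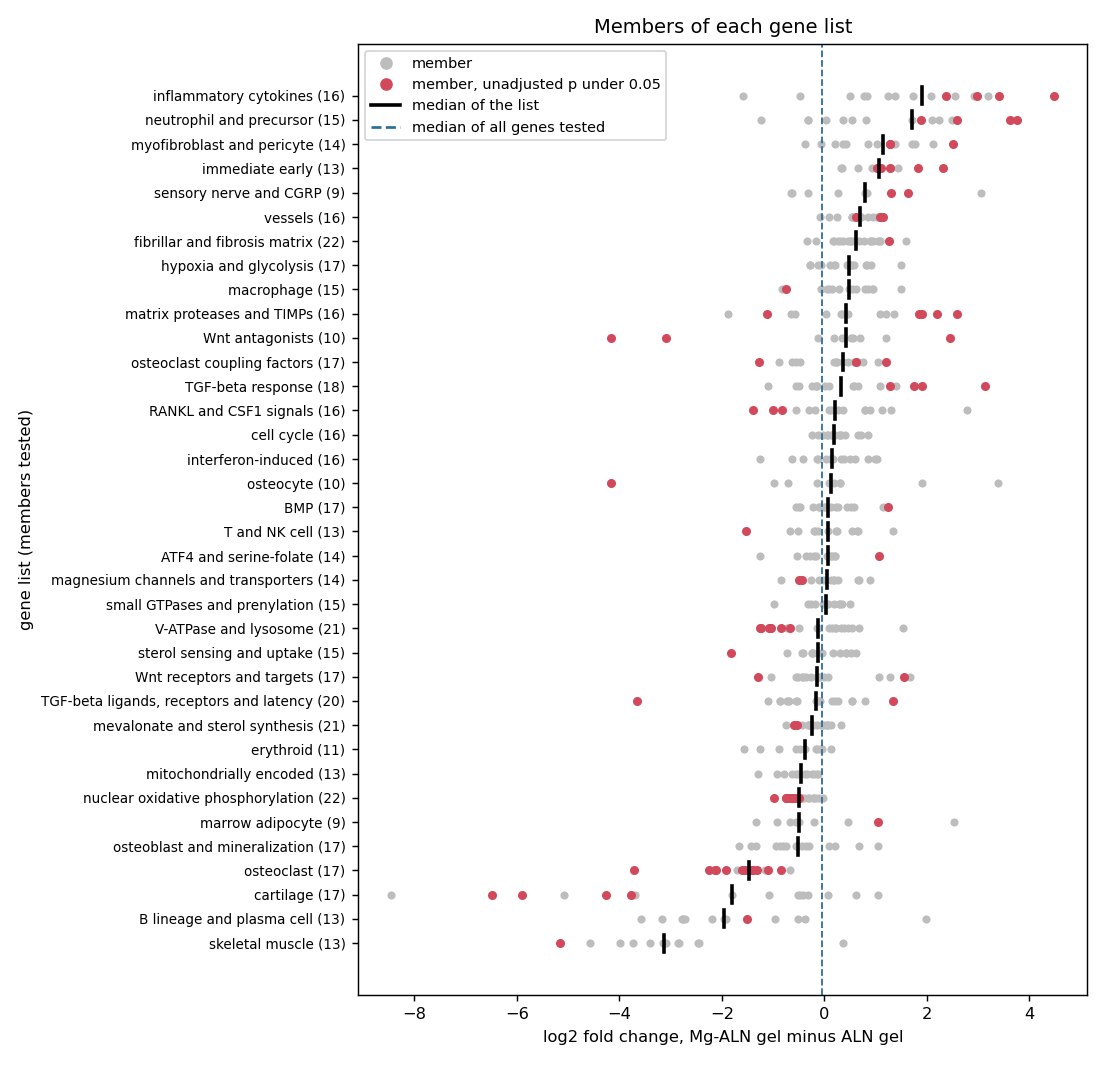
Log2 fold change (Mg-ALN gel minus ALN gel, horizontal axis) of every tested member of 36 gene lists (vertical axis, with the number tested). Red points had an unadjusted p under 0.05, black bars are list medians, and the dashed line is the median of all genes, −0.04. All 17 osteoclast members and all 22 nuclear oxidative phosphorylation members lie below 0, and all 13 immediate early members lie above it.

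Oas1k (ENSRNOG00000033220, chromosome 12, 41227825 to 41307352), a member of the interferon-induced oligoadenylate synthetase family, had 7.68, 4.83 and 5.29 CPM in ALN gel against 24, 25.6 and 27.8 in Mg-ALN gel, and 12.2, 13.1 and 17.3 in the gel alone. Every Mg-ALN gel library was over 3 times as high as every ALN gel library, and the fold change was 2.12 (SE 0.27), with an edgeR adjusted p of 0.217 and a DESeq2 adjusted p of 1.46e-10. Oas1k has close paralogs, so its reads may be split between them. Of 16 other interferon-induced genes, 0 had an unadjusted p under 0.05 in either direction, and their median was 0.15. Selenow (ENSRNOG00000013548, chromosome 1, 77533148 to 77535681), a small selenoprotein, had 1.01, 2.51 and 7.29 CPM in ALN gel against 117, 52.7 and 58.9 in Mg-ALN gel, a fold change of 4.39 (SE 0.66). The gel alone had 47.4, 41.2 and 42.9 CPM, so the 3 ALN gel libraries were the low ones of the 9.

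The other genes higher in Mg-ALN gel that were named by smallest p had fold changes of 1.03 to 2.89. Egfl7 (ENSRNOG00000019388, chromosome 3, 4034921 to 4043936), a factor secreted by endothelial cells, had 69.8, 43.5 and 53.8 CPM in ALN gel against 114, 122 and 106 in Mg-ALN gel (1.03, SE 0.20). Timp1 (ENSRNOG00000010208, chromosome X, 1364786 to 1369384), an inhibitor of matrix metalloproteases, had 183, 273 and 285 against 958, 1115 and 694 (1.9, SE 0.42). No overlap between the groups was part of the rule that chose the genes of this paragraph. Ckap4, a membrane protein of the rough endoplasmic reticulum, had 107, 183 and 163 CPM and 314, 369.6 and 273 (1.08, SE 0.25). Aldh1l2, a mitochondrial folate enzyme, had 15.5, 23 and 28 against 37.6, 48 and 53.7 (1.07, SE 0.25). Tead2, a DNA-binding partner of the YAP and TAZ coactivators, and Meox1, a homeobox factor, were at lower levels, with fold changes of 1.18 (SE 0.27) and 1.59 (SE 0.36). Dppa4 was near the floor in ALN gel, with 0.698, 0.753 and 0.851 CPM against 8.43, 2.74 and 6.03 (2.89, SE 0.63). On the same counts, DESeq2 called each of these 7 genes, with adjusted p-values from 6.19e-04 (Egfl7) to 0.0181 (Aldh1l2).

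Among genes lower in Mg-ALN gel, Sema5a (ENSRNOG00000011977, chromosome 2, 85377318 to 85808970), a transmembrane semaphorin, had 142, 88.1 and 125 CPM in ALN gel against 24.4, 14.4 and 33.4 in Mg-ALN gel (−2.3, SE 0.35). Ccl9 (ENSRNOG00000028548, chromosome 10, 70783424 to 70788309), a chemokine made by osteoclasts and myeloid cells, had 529, 363 and 155 against 90, 69.9 and 86.9 (−2.08, SE 0.39). It was above the gel alone, 35.2, 36.5 and 32.2 CPM, in every library of both groups. Cd4, which rat macrophages and monocytes carry as well as helper T cells, had 198, 203 and 124 against 48.2, 69.8 and 64.2 (−1.53, SE 0.25), while the 3 listed genes of the T cell receptor complex lay between −0.19 and 0.65 with no unadjusted p under 0.05. Ccdc3, a secreted protein, had 26.8, 32.8 and 25.2 against 3.47, 5.96 and 5.59 (−2.49, SE 0.37). Pax8, a paired-box transcription factor, had 46.2, 45.7 and 26.8 against 8.12, 11.1 and 9.84 (−2.03, SE 0.38). Here too the rule that chose the genes of this paragraph required no overlap between the groups. Cited2, a transcriptional coregulator, was tight within each group, 100.3, 102 and 97 against 51.9, 49.2 and 57.5 CPM (−0.92, SE 0.17). Gsap (−1.41, SE 0.23), Lmtk2 (−1.16, SE 0.23) and Slc25a43 (−1.57, SE 0.31), a carrier of the mitochondrial inner membrane, were chosen by the same rule. On the same counts, DESeq2 called these 9 genes, with adjusted p-values from 3.84e-07 (Ccdc3) to 0.00199 (Lmtk2).

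**Figure D2:**
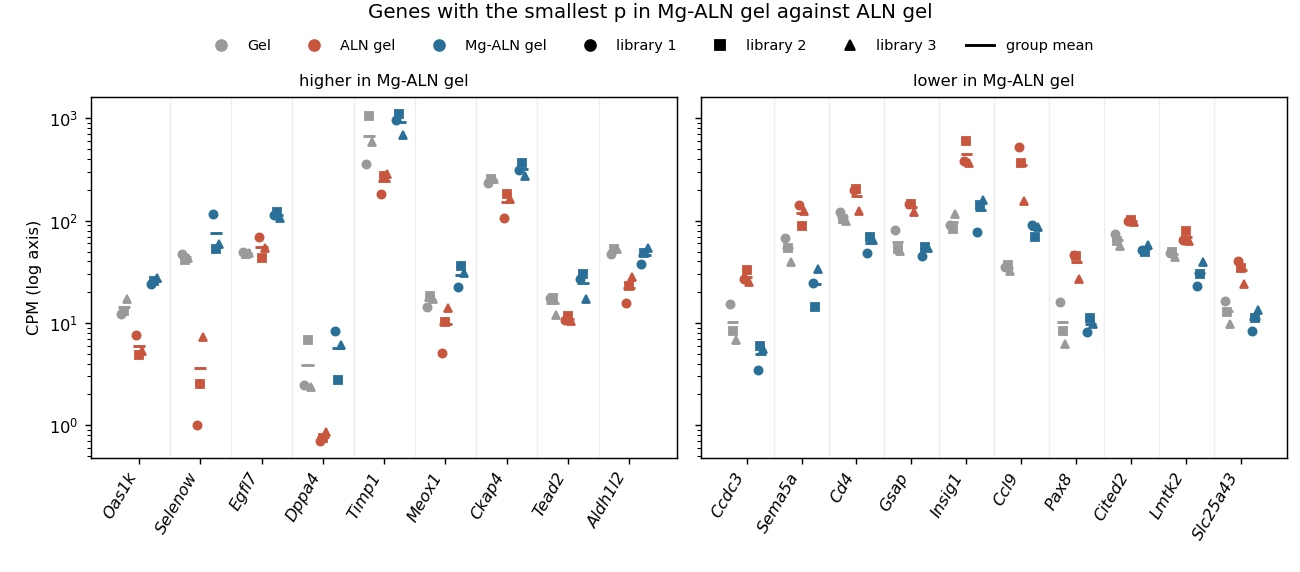
CPM (log axis) of the 9 higher and 10 lower protein-coding genes named by smallest p, by library, with Gel in grey, ALN gel in red and Mg-ALN gel in blue. Marker shapes give the library number and bars the group means. In every panel column the ALN gel and Mg-ALN gel points separate without overlap, since that was part of the rule that chose these genes.

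As a group, osteoclast genes had lower levels in Mg-ALN gel. All 17 tested members of 18 had negative fold changes, with a median of −1.48, and 12 of 17 had an unadjusted p under 0.05, against 5.43% of all genes. In 14 of 17 the groups did not overlap, against 9.77% of all genes. DESeq2 called Calcr and Src lower, and edgeR called 0. The summed level of the list was 25779, 29662 and 26239.5 CPM of the unscaled library in ALN gel against 3857, 13134 and 11219 in Mg-ALN gel. Mg-ALN gel library 1 was the lowest of the 6, and the groups did not overlap. The count of 12 became 5 without Mg-ALN gel 1.

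Receptors and factors of osteoclast formation were among the lower genes. Tnfrsf11a, the receptor RANK through which RANKL acts, had 86.1, 95.9 and 71.5 CPM in ALN gel against 24.3, 31.5 and 46.5 in Mg-ALN gel (−1.31, SE 0.41). Nfatc1, the master transcription factor of osteoclasts, had 103, 215 and 216 against 18.1, 75.9 and 87 (−1.56, SE 0.61). In both genes the lowest ALN gel library was above the highest Mg-ALN gel library. Siglec15, a sialic acid receptor of fusing precursors, had 66, 87.3 and 67.2 against 3.63, 23.9 and 22.3 (−2.14, SE 0.89). Atp6v0d2, a proton pump subunit needed for fusion, had 495, 367 and 293 against 35.6, 114 and 118 (−2.11, SE 0.73). Calcr (ENSRNOG00000010053, chromosome 4, 28627442 to 28702559), the calcitonin receptor of mature osteoclasts, had 312, 305 and 300 counts in ALN gel against 15, 8 and 47 in Mg-ALN gel, or 24.2, 19.1 and 18.2 against 1.18, 0.477 and 2.99 CPM, the largest difference of the list (−3.72, SE 0.78, DESeq2 adjusted p 3.26e-04).

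Genes of the resorbing machinery were lower by similar amounts. Src, the kinase that organises the sealing zone and ruffled border, had 358, 450.1 and 314 CPM in ALN gel against 83.6, 165 and 180.4 in Mg-ALN gel (−1.39, SE 0.36, DESeq2 adjusted p 0.034). Tcirg1, the osteoclast form of the proton pump's a subunit, had 597, 659 and 495 against 220.0, 266 and 331 (−1.1, SE 0.32). The 2 groups did not overlap for these genes. Clcn7, the chloride-proton exchanger that works beside the pump, had 106, 148 and 140.4 against 19.1, 59.1 and 65.6 (−1.46, SE 0.45), and its partner Ostm1 had a fold change of −0.85 (SE 0.31). Of the secreted enzymes, Acp5 (ENSRNOG00000046261, chromosome 8, 23142734 to 23148396), the tartrate-resistant acid phosphatase, had 9823, 5517 and 5363 against 959, 1366 and 2016 (−2.25, SE 0.91). Mmp9 had 5973, 7958 and 5241 against 616, 2186 and 2294 (−1.91, SE 0.77). Both enzymes separated without overlap. Ctsk (ENSRNOG00000021155, chromosome 2, 196655469 to 196666446), cathepsin K, had 14522, 12792 and 10030.5 against 2013, 7086 and 7592, −1.16 (SE 0.75), with an unadjusted edgeR p of 0.158. Car2, the carbonic anhydrase that supplies protons, also missed the unadjusted threshold at −1.7 (SE 0.81). None of these single genes passed by edgeR, where their adjusted p-values were 0.496 (Src) to 0.658 (Ctsk).

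In the V-ATPase and lysosome list, all 6 listed subunits of the V1 sector, the cytosolic part of the pump that hydrolyses ATP, were lower in Mg-ALN gel at an unadjusted p under 0.05. Atp6v1a, the catalytic subunit, had 712, 867 and 618 CPM in ALN gel against 162, 351 and 421 in Mg-ALN gel (−1.23, SE 0.38). Atp6v1b2, the partner of the catalytic subunit, had 1191, 1272 and 809.6 against 306, 441 and 626 (−1.25, SE 0.39). Atp6v1d, of the central stalk, had 398, 300.1 and 218 against 141, 144 and 148 (−1.08, SE 0.30). The groups of these 3 genes did not overlap. Atp6v1c1 (−1.05, SE 0.29), Atp6v1h (−1.05, SE 0.32) and Atp6v1e1 (−0.84, SE 0.29) differed in the same direction, as did the accessory subunit Atp6ap1 (−0.67, SE 0.25). Subunits of the membrane sector that are used in lysosomes generally overlapped between the groups, with 0.55 (SE 0.43) for Atp6v0a1, 0.20 (SE 0.27) for Atp6v0d1 and −0.50 (SE 0.30) for Atp6v0c.

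Lamp1, Ctsd and Ctsl, lysosomal proteins of this list, had positive values with wide errors. Lamp1, an abundant lysosomal membrane protein, had 332, 696 and 495 CPM in ALN gel against 827, 521 and 559 in Mg-ALN gel (0.32, SE 0.40). Ctsd, cathepsin D, had 1178, 1854 and 942 against 2720.1, 1052 and 1386 (0.38, SE 0.54). Both overlapped. Ctsl, cathepsin L, had 209.5, 532 and 286 against 1169, 664 and 1149.6, without overlap but with a wide error (1.54, SE 0.75, unadjusted p 0.0714). The list as a whole had 10 members higher and 11 lower and a median of −0.12. The 7 lower members named above were those with an unadjusted p under 0.05, against 5.43% of all genes. The count of 7 became 3 without the mitochondria-rich pair. The median was 0.16 without ALN gel library 2.

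Many lysosomal promoters carry a palindromic E-box bound by the MiT/TFE family of transcription factors. The letters GTCACGTG were searched on both strands in the RefSeq promoters of build GRCr8, from 250 bases before to 50 after each gene start. They occurred in 1 of 11 osteoclast list members with a promoter in that set, in 4 of 14 V-ATPase and lysosome members, and in 620 of 33469 promoters (1.85%). One promoter of each list is shown because the 2 genes hold the same letters and had opposite signs in this comparison, −1.46 for Clcn7 and 0.32 for Lamp1, where the value for Lamp1 was within its error. Capitals mark the letters searched, on either strand.
Clcn7 (chr10:14656011-14656310, plus strand): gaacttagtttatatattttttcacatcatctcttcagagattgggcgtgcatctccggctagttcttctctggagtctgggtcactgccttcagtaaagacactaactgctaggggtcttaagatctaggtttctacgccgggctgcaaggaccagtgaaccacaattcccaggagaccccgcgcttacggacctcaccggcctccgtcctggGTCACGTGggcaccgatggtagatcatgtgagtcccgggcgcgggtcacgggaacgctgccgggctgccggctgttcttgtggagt
Lamp1 (chr16:83075014-83075313, minus strand): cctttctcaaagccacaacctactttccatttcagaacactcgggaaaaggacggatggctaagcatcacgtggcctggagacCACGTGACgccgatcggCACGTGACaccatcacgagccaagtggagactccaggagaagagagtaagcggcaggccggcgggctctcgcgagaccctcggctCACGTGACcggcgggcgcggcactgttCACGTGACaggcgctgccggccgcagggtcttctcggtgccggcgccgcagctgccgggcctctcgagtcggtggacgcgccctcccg
The match of Clcn7 starts 36 bases before the gene start. The other 3 members with a match had fold changes of 0.09 to 0.38. A match describes these letters and is not a measured binding site.

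**Figure D3:**
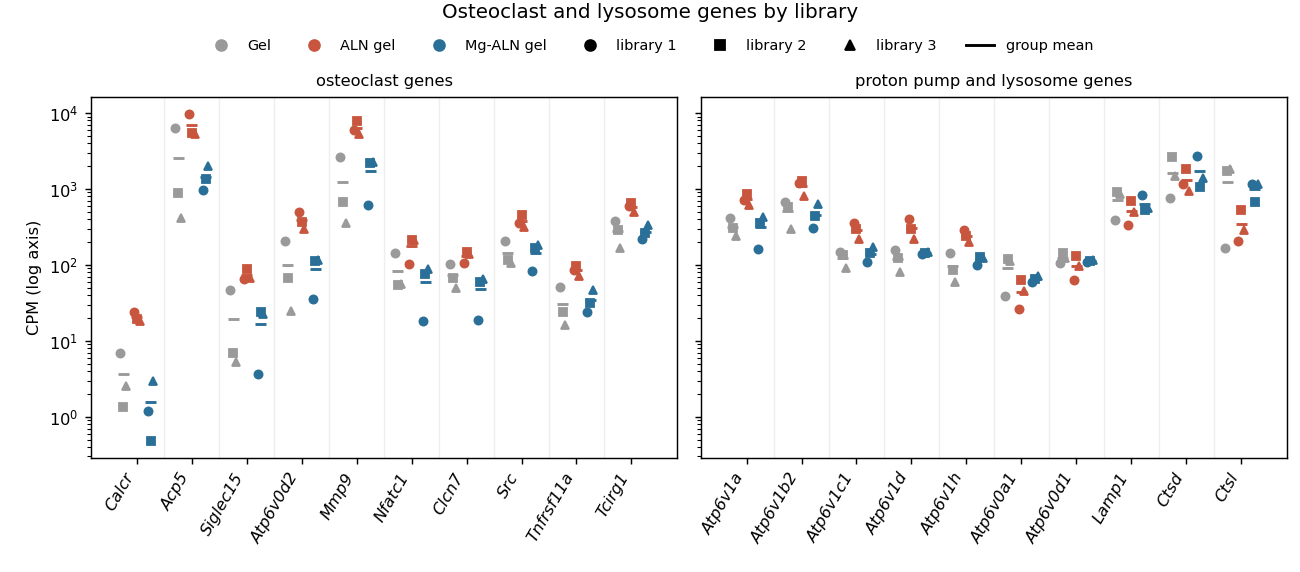
CPM (log axis) of 10 osteoclast genes and 10 proton pump and lysosome genes by library, with Gel in grey, ALN gel in red and Mg-ALN gel in blue; bars are group means and shapes the library numbers. ALN gel libraries lie above Mg-ALN gel libraries for the osteoclast genes and the V1 subunits shown, while Lamp1 and Ctsd overlap and Ctsl is higher in Mg-ALN gel.

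Signals upstream of osteoclasts had no common direction. Of 16 members of the RANKL and CSF1 list 10 were higher and 6 lower, with a median of 0.20. At an unadjusted p under 0.05, 3 of 16 were lower, against 5.43% of all genes. Traf6, the adaptor that carries the RANK signal, had 9.0, 14.8 and 16.6 CPM in ALN gel against 3.55, 6.61 and 5.27 in Mg-ALN gel (−1.39, SE 0.35, DESeq2 adjusted p 0.023). Csf1r, the receptor for macrophage colony-stimulating factor on osteoclast precursors and macrophages, had 689, 803 and 633 against 371, 374 and 450.1 (−0.83, SE 0.22, DESeq2 adjusted p 0.0095). Both separated without overlap. Prdm1, a repressor that acts during osteoclast differentiation, had −1.0 (SE 0.40). The ligands were not lower in step. Tnfsf11, RANKL, had 0.0776, 2.38 and 0.122 against 0, 7.27 and 10.7 CPM (2.78, SE 1.81), with overlap. Its decoy receptor Tnfrsf11b had 0.78 (SE 0.56). Csf1, the ligand of Csf1r, had 117, 101 and 102 against 80.8, 60.2 and 77.2 (−0.56, SE 0.25). The median of this list was −0.09 without Mg-ALN gel library 1.

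Genes through which osteoclasts and osteoblasts influence each other gave a mixed picture, with 12 of 17 members higher and a median of 0.35. At an unadjusted p under 0.05, 2 were higher and 1 lower, against 3.76% and 5.43% of all genes. Sema4d, a semaphorin of osteoclasts that restrains osteoblasts, had 67.6, 88.7 and 83.9 CPM in ALN gel against 14.5, 45.4 and 39.2 in Mg-ALN gel (−1.28, SE 0.38). Cthrc1, a secreted factor of bone turnover, had 46.8, 48.7 and 119 against 230.0, 134 and 132 (1.21, SE 0.41). Ephb4, an osteoblast receptor for ephrin B2, had 60.7, 64.2 and 91 against 98.8, 128 and 106 (0.62, SE 0.23). All 3 genes separated without overlap. The median was 0.05 without Mg-ALN gel library 1 and −0.01 with limma-voom and quality weights.

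Genes of the pathway that the drug targets had small differences, most of them negative. In the mevalonate and sterol synthesis list 16 of 21 members were lower, with a median of −0.23. Of the lower members 2 had an unadjusted p under 0.05, against 5.43% of all genes. Fdps (ENSRNOG00000043377, chromosome 2, 188392858 to 188413219), the synthase of farnesyl diphosphate that alendronate inhibits, had 78.2, 88.5 and 76.3 CPM in ALN gel against 74.4, 76.8 and 51.2 in Mg-ALN gel (−0.26, SE 0.20, edgeR adjusted p 0.697). The groups overlapped for Fdps. Msmo1 and Sc5d, enzymes of late sterol synthesis, had −0.53 (SE 0.23) and −0.59 (SE 0.23). Ggps1, which makes the lipid used for most small GTPases, had −0.54 (SE 0.29). The median was −0.05 without ALN gel library 2.

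Insig1 (ENSRNOG00000006859, chromosome 4, 342302 to 350515) had the largest difference among the sterol sensors. It encodes a protein of the endoplasmic reticulum that retains the sterol-sensing complex and is itself induced by that complex. Its levels were 381, 595 and 369 CPM with ALN, 78.2, 142 and 158 with Mg-ALN and 91.2, 83.1 and 116 in the gel alone. Each ALN gel library was more than 2 times as high as each Mg-ALN gel library (−1.83, SE 0.33, edgeR adjusted p 0.454, DESeq2 adjusted p 1.91e-04). The other 14 tested members of the sterol sensing and uptake list had no unadjusted p under 0.05. Among them Srebf2, the main activator of sterol synthesis, had −0.42 (SE 0.25). The enzymes that attach the lipids and the GTPases that carry them had a median of 0.03 over 15 members, none with an unadjusted p under 0.05 (0 in each direction).

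Nuclear genes of oxidative phosphorylation were lower by a small amount, least so against ALN gel library 3. Mean log2 CPM over members, centred by gene on the 9 libraries, was 0.67, 0.43 and 0.09 against −0.04, −0.14 and −0.11. All 22 tested members had negative values, with a median of −0.50. Of the 22, 10 had an unadjusted p under 0.05 and 11 had no overlap, against 5.43% and 9.77% of all genes. Uqcrc2, a core subunit of complex III, had 139, 121 and 114 CPM in ALN gel against 41.2, 78 and 70.2 in Mg-ALN gel (−0.98, SE 0.26, DESeq2 adjusted p 0.0453). Sdhb, of complex II, had 187, 158 and 118 against 92, 89.6 and 103 (−0.70, SE 0.21). Cycs, cytochrome c, had 242, 185 and 150.0 against 93.8, 135 and 117 (−0.74, SE 0.25). Uqcrfs1, the iron-sulphur protein of complex III, had −0.73 (SE 0.24). The count of 10 became 3 without ALN gel 1, 6 without ALN gel 2, 4 without Mg-ALN gel 2 and 1 without the mitochondria-rich pair. Mitochondrially encoded transcripts had 13 of 13 negative values and a median of −0.46, but their median was 0.70 without ALN gel library 1, the library with the highest mitochondrial share, and none had an unadjusted p under 0.05 (0 of 13).

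Sost (ENSRNOG00000020805, chromosome 10, 89897087 to 89900131), the Wnt antagonist secreted by osteocytes, had 119, 71 and 114 counts in ALN gel against 3, 2 and 12 in Mg-ALN gel. In CPM this was 9.23, 4.46 and 6.93 against 0.236, 0.119 and 0.762, with 1.85, 0.282 and 0.313 in the gel alone. The lowest ALN gel library held several times the level of the highest Mg-ALN gel library (−4.17, SE 0.98, edgeR adjusted p 0.496, DESeq2 adjusted p 0.00199). Other osteocyte genes overlapped between the groups or had wide errors. Dmp1 (ENSRNOG00000002167, chromosome 14, 6889856 to 6900733), a matrix protein of osteocytes, had 207, 37.8 and 43.1 CPM against 127, 4.41 and 196 (0.19, SE 1.12), and Mepe and Phex, which regulate mineral and phosphate, had −0.71 (SE 0.96) and −0.98 (SE 1.0). Fgf23, the phosphate hormone of osteocytes, was on the other side at 3.38 (SE 1.57), with 0.155, 0.188 and 0.182 CPM against 0, 3.16 and 2.54, and Mg-ALN gel library 1, at 0, was the lowest of the 6, so the groups overlapped. Of 10 tested osteocyte members 6 were higher and 4 lower. Sost was the 1 member with an unadjusted p under 0.05, against 5.43% of all genes lower.

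Among the other secreted Wnt antagonists the direction was not shared. Wif1, which binds Wnt proteins, had 156, 64.5 and 39.9 CPM in ALN gel against 12.5, 2.08 and 16.1 in Mg-ALN gel (−3.09, SE 1.18). Sfrp2, a secreted Frizzled-related protein, had 9.0, 13.9 and 12.6 against 137, 49.2 and 8.13 (2.46, SE 0.90). Sfrp4 had 66.9, 117 and 291 against 509, 401 and 188 (1.21, SE 0.58). The groups overlapped for both Sfrp genes. Lrp4, the receptor that presents sclerostin to the Wnt coreceptors, had 137, 84.9 and 90.3 against 37.8, 32.4 and 56.3 (−1.3, SE 0.48). Of the feedback targets of β-catenin, Axin2 had −0.14 (SE 0.55) and Nkd1 1.55 (SE 0.59). The list of 17 Wnt receptors and targets had 5 members higher and 12 lower and a median of −0.14. At an unadjusted p under 0.05, 1 was higher and 1 lower, against 3.76% and 5.43% of all genes.

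Osteoblast genes had more negative than positive values, 13 of 17 with a median of −0.52, and 0 with an unadjusted p under 0.05. Runx2, the master factor of the lineage, had 138, 93.6 and 100.2 CPM in ALN gel against 53.7, 53.4 and 91.3 in Mg-ALN gel (−0.74, SE 0.34). Bglap (ENSRNOG00000019607, chromosome 2, 187741770 to 187742747), osteocalcin, had 548, 412 and 224 against 855, 3.45 and 395 (0.08, SE 1.4). Ibsp, bone sialoprotein, had 4191, 1396 and 1494.7 against 778, 100.1 and 1740.2 (−1.44, SE 1.0), and Mef2c, an osteocyte and osteoblast regulator, −0.94 (SE 0.43). The groups overlapped for Bglap and Ibsp, and DESeq2 called 0 members of the list. Leaving out 1 library put the median between −0.90 (without Mg-ALN gel 3) and −0.24 (without Mg-ALN gel 2).

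Most cartilage genes of the callus were lower in Mg-ALN gel, with 14 of 17 tested members negative and a median of −1.81. Of the lower members 4 passed the unadjusted threshold, against 5.43% of all genes. The median was the same with the 1 member at 0 in every Mg-ALN gel library set at its bound of 3 counts over the group. Summed over the list, levels in CPM of the unscaled library were 420, 630 and 1692 against 776, 659 and 665. On this unscaled measure the sum was not lower in step, since every Mg-ALN gel library lay above ALN gel libraries 1 and 2 and below ALN gel library 3. Mitochondrial counts are part of the unscaled total, so this order can differ in scaled CPM. Hapln1, the link protein of cartilage aggregates, had 42.2, 11.5 and 41 CPM in ALN gel against 4.57, 0.774 and 1.65 in Mg-ALN gel (−3.77, SE 1.02, DESeq2 adjusted p 0.0093). Col2a1, the main collagen of cartilage, had 801, 325 and 783 counts against 12, 5 and 15 (−5.89, SE 1.84, DESeq2 adjusted p 0.0339). Col10a1, the collagen of hypertrophic chondrocytes, had 159, 114 and 5 counts and 0, 0 and 3. For Col9a3 the counts were 50, 15 and 11 against 0, 0 and 4. In each of these collagens every Mg-ALN gel library lay below every ALN gel library. Counts this low give no reliable fold change for Col10a1 and Col9a3. Sox9, the lineage factor, had 6.36, 7.78 and 14.7 against 9.22, 7.74 and 3.75 (−0.48, SE 0.46), with overlap, and Acan, aggrecan, had −1.09 (SE 0.80). The count of 4 became 7 without Gel 2, 7 without Gel 3, 2 without ALN gel 1, 2 without Mg-ALN gel 2 and 0 without the mitochondria-rich pair. The median was −0.51 when the 6 libraries were fitted alone and −3.48 without Mg-ALN gel library 1. The low-count filter was rerun in each of these fits, so the members tested can differ from the 17 above.

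Genes of fibrillar and fibrosis matrix were higher in Mg-ALN gel in 20 of 22 tested members, with a median of 0.62. Of the higher members only 1 had an unadjusted p under 0.05, against 3.76% of all genes. In 6 of 22 every Mg-ALN gel library lay above every ALN gel library, against 6.76% of all genes. Col1a1 (ENSRNOG00000003897, chromosome 10, 82745801 to 82762789), type I collagen, had 10756, 21141 and 29177 CPM in ALN gel against 26548, 30834 and 33366 in Mg-ALN gel (0.57, SE 0.64). Col3a1 (ENSRNOG00000003357, chromosome 9, 52023295 to 52059217), of granulation tissue and scar, had 926, 6201 and 18624 against 18081, 17664 and 12286 (0.90, SE 0.89). In both genes ALN gel library 1 was the lowest of the 6, and ALN gel library 3 was above at least 1 Mg-ALN gel library. Postn (ENSRNOG00000012660, chromosome 2, 143656793 to 143688087), periostin, had 423, 2435 and 1866 against 3903, 2713 and 3417 (1.09, SE 0.59). Lum, the collagen-binding proteoglycan lumican, had 1166, 1760.0 and 2641 against 5386, 4431 and 3473 (1.26, SE 0.43). Lox, which crosslinks collagen, had 29.2, 424 and 355 against 569, 1219.7 and 645 (1.59, SE 0.79). Fn1, fibronectin, was at −0.17 (SE 1.01). Leaving out 1 library put the median between 0.39 (without ALN gel 1) and 1.51 (without ALN gel 3).

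Myofibroblast and pericyte genes had 12 of 14 members higher, with a median of 1.15. Of the higher members 3 had an unadjusted p under 0.05, against 3.76% of all genes. Acta2 (ENSRNOG00000058039, chromosome 1, 252537615 to 252550394), smooth muscle actin, had 16.1, 161 and 215 CPM in ALN gel against 762, 332 and 194 in Mg-ALN gel (1.72, SE 0.88, edgeR adjusted p 0.587). Myl9, the contractile light chain, had 68.8, 111 and 147 against 464, 185 and 143 (1.28, SE 0.45). Cnn1, calponin, had 2.02, 3.26 and 15.9 against 84.4, 25.1 and 11.2 (2.51, SE 0.95). Mcam, an adhesion molecule of pericytes and endothelium, had 52.4, 71.2 and 193 against 169, 358 and 246 (1.29, SE 0.49). In these 4 genes the highest ALN gel library was above the lowest Mg-ALN gel library. The groups separated without overlap in 1 of 14 members, against 6.76% of all genes. The count of 3 became 0 without ALN gel 1, 1 without ALN gel 2, 7 without ALN gel 3, 1 without Mg-ALN gel 1 and 5 without Mg-ALN gel 3. Leaving out 1 library put the median between 0.57 (without Mg-ALN gel 1) and 1.83 (without ALN gel 3).

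The TGF-β pathway showed no common direction among its ligands and receptors, with 7 of 20 members higher, 13 lower and a median of −0.16. Tgfb1 (ENSRNOG00000020652, chromosome 1, 82480195 to 82497199) had 115, 196 and 182 CPM in ALN gel against 196, 219 and 173 in Mg-ALN gel (0.26, SE 0.24), with overlap. Its receptors Tgfbr1 and Tgfbr2 had −0.73 (SE 0.41) and −0.86 (SE 0.54). Ltbp1, which stores the latent ligand in the matrix, had 12, 16 and 37.1 against 87.6, 45.3 and 30.7 (1.33, SE 0.49). Itgb6, an integrin that activates it, had 1.4, 0.314 and 3.28 against 0, 0.357 and 0 (−3.65, SE 1.6). Both overlapped between the groups. These were the members with an unadjusted p under 0.05, 1 higher and 1 lower, against 3.76% and 5.43% of all genes.

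Target genes of TGF-β had 11 of 18 members higher and a median of 0.33. At an unadjusted p under 0.05, against 3.76% of all genes, 4 were higher, all of which respond to other stimuli as well. Besides Timp1, these were Ccn1, a matricellular protein, with 81.6, 58.3 and 187 CPM in ALN gel against 497, 386 and 216 in Mg-ALN gel (1.75, SE 0.62), Junb (1.28, SE 0.51) and Il11, a cytokine of stromal cells (3.12, SE 1.32). Ccn2 (ENSRNOG00000015036, chromosome 1, 21851660 to 21854773), connective tissue growth factor, had 252, 209.6 and 870.2 against 1071, 199 and 151 (0.09, SE 0.79). It lay at 0 within its error, and the groups overlapped. Smad7, the feedback inhibitor of the pathway, had −0.55 (SE 0.38). The count of 4 became 1 without ALN gel 1, 2 without Mg-ALN gel 1 and 1 without the mitochondria-rich pair. The median was 0.08 without ALN gel library 1.

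The BMP list had a median of 0.08 over 17 members, with 10 higher and 7 lower. Id1, a direct target of BMP receptors that endothelial cells also express, had 55.5, 57 and 55.5 CPM in ALN gel against 153, 96.8 and 147 in Mg-ALN gel, without overlap (1.24, SE 0.31, DESeq2 adjusted p 0.0333). The related target Id3 had 0.23 (SE 0.41), and no other member of the list had an unadjusted p under 0.05.

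Proteases that cut matrix differed in both directions, with 12 of 16 members higher, 4 lower and a median of 0.43. Adamts4, which cuts aggrecan and versican, had 11.9, 29.4 and 48.1 CPM in ALN gel against 64.1, 186 and 163 in Mg-ALN gel (2.2, SE 0.72). Its relative Adamts1 had 11.6, 36.3 and 106 against 124, 217 and 209.7 (1.84, SE 0.73). Both separated without overlap. Mmp8, the collagenase of neutrophils, had 19.9, 26.7 and 2.98 against 194, 13.6 and 89.6 (2.58, SE 1.08), with Mg-ALN gel library 2 within the ALN gel range. Mmp13, the collagenase of hypertrophic cartilage and osteoblasts, was lower, with 9188, 4689 and 4393 against 1963, 2231 and 4179 (−1.13, SE 0.47). At an unadjusted p under 0.05 there were 4 members higher, Timp1 included, and 1 lower, against 3.76% and 5.43% of all genes. DESeq2 called Timp1. The count of 4 became 2 without ALN gel 1, 2 without Mg-ALN gel 3 and 1 without the mitochondria-rich pair.

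Inflammatory genes were higher in Mg-ALN gel, with 14 of 16 tested members positive and a median of 1.90. Of the 16, 4 were higher at an unadjusted p under 0.05 and 8 without overlap, against 3.76% and 6.76% of all genes. Il6 (ENSRNOG00000010278, chromosome 4, 3043231 to 3047807), the cytokine that drives the acute phase response, had 0, 82 and 14 counts in ALN gel against 788, 786 and 431 in Mg-ALN gel, or 0, 5.15 and 0.851 against 62.1, 46.8 and 27.4 CPM (4.48, SE 1.32, DESeq2 adjusted p 0.0222). Cxcl1, which attracts neutrophils, had 1.71, 12.5 and 6.02 against 71.2, 77.4 and 67.8 (3.41, SE 0.97, DESeq2 adjusted p 0.0144). ALN gel library 2 was the highest of its group in both genes. Ccl2, which attracts monocytes, had 14.4, 37.7 and 19.5 against 189.9, 94 and 88 (2.38, SE 0.78). Ptgs2, the inducible cyclooxygenase, had 2.33, 25.9 and 22.8 against 63.5, 239.9 and 102 (2.99, SE 1.08). Il1b, interleukin 1β, had 9.62, 337 and 6.02 against 528, 170.4 and 218 and overlapped (1.38, SE 1.58). Cxcl10, a chemokine induced by interferon, was lower at −1.59 (SE 0.77). The count of 4 became 7 without Gel 1, 10 without ALN gel 2 and 2 without the mitochondria-rich pair. The median was 3.97 without ALN gel library 2.

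Neutrophil genes were mixed between libraries and between members. The summed level of the list was 519, 757 and 224 CPM of the unscaled library in ALN gel against 8279, 1300.3 and 2177 in Mg-ALN gel. Of 15 tested members 12 were higher, with a median of 1.71, and 4 had an unadjusted p under 0.05, against 3.76% of all genes. The list score, the mean over members of log2 CPM centred on each gene's mean of the 9 libraries, overlapped between the groups. It was 0.00, 0.70 and −1.63 in ALN gel against 2.13, −1.62 and 1.79 in Mg-ALN gel, with Mg-ALN gel library 2 as low as the lowest ALN gel library. S100a8, a subunit of calprotectin in mature neutrophils and monocytes, had 159, 132 and 26.1 CPM in ALN gel against 3422, 174 and 665 in Mg-ALN gel (3.75, SE 1.2). The other subunit, S100a9, had 234, 213 and 31.5 against 4527, 339 and 1015 (3.62, SE 1.2). Mg-ALN gel library 1 was far above the rest in both, and Mg-ALN gel library 2 was just above the ALN gel libraries. Lcn2, an iron-withholding protein that many cells make in inflammation, had 47.1, 78.9 and 89.9 against 164, 377 and 256 (1.88, SE 0.60). The granule genes of precursors were not higher in step, with 0.36 (SE 1.48) for Mpo, −0.33 (SE 0.82) for Elane and −1.24 (SE 1.52) for Ctsg. The count of 4 became 7 without ALN gel 2, 1 without Mg-ALN gel 1 and 2 without the mitochondria-rich pair. Of the 16 markers listed 1 was at 0 in all 6 libraries. The part of neutrophil content in the inflammatory values was not tested.

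Immediate early genes, which respond within minutes to stimuli and to tissue handling, were higher in 13 of 13 members, with a median of 1.06. Of these, 5 had an unadjusted p under 0.05, against 3.76% of all genes. Ier2, whose entry the deposited table annotates as a pseudogene, had 65, 68.8 and 63.4 CPM in ALN gel against 139.9, 142 and 140.2 in Mg-ALN gel (1.1, SE 0.23, DESeq2 adjusted p 0.0062). Egr1 had 53.1, 61.3 and 126 against 143, 206 and 145 (1.03, SE 0.40). Both separated without overlap. Zfp36, which destabilises cytokine transcripts, had 44.8, 129 and 108 against 430.2, 267 and 306 (1.83, SE 0.71). Nr4a1 had 6.05, 16.2 and 40.5 against 227, 56.9 and 26.2 (2.3, SE 0.87), with overlap. ALN gel library 1, with the highest mitochondrial share, was the lowest of the 6 in the score of this list. This score was −1.84, −0.79 and 0.14 in ALN gel against 0.71, 0.77 and 0.24 in Mg-ALN gel. The count of 5 became 1 without ALN gel 1, 3 without ALN gel 2, 2 without Mg-ALN gel 1 and 2 without the mitochondria-rich pair.

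**Figure D4:**
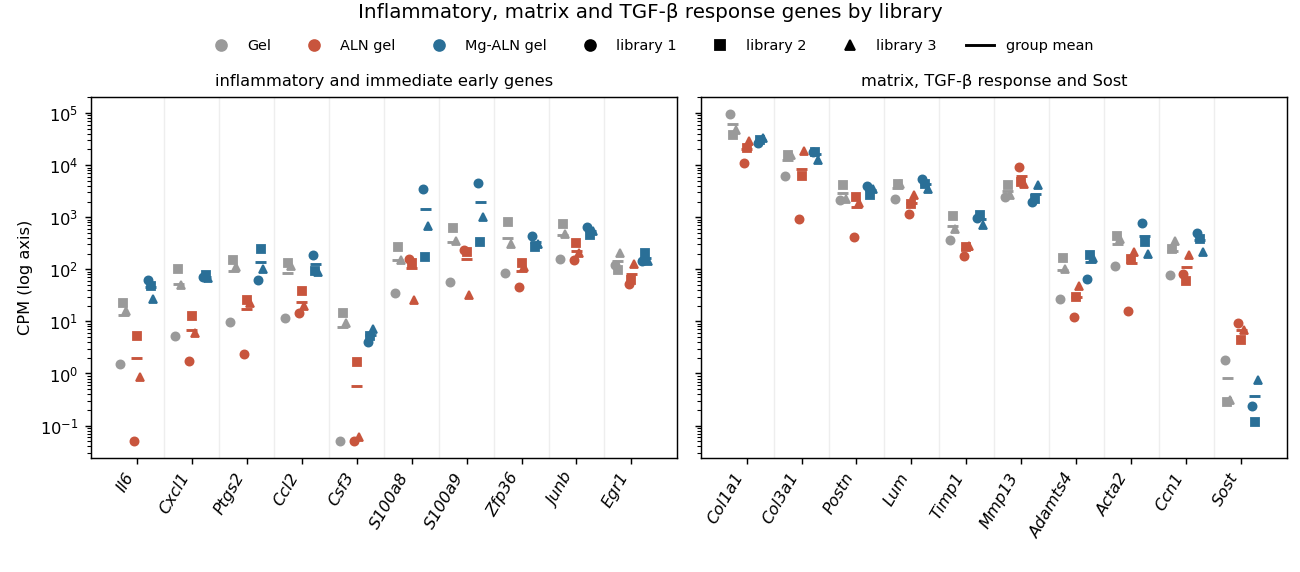
CPM (log axis) of 10 inflammatory and immediate early genes and 10 genes of matrix, TGF-β response and Sost by library, with Gel in grey, ALN gel in red and Mg-ALN gel in blue; bars are group means and shapes the library numbers. For Il6 and Cxcl1 every Mg-ALN gel point lies above every ALN gel point, for Sost the order is opposite, and for Col1a1 and Col3a1 the groups overlap.

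Vessel genes were higher in 15 of 16 tested members, with a median of 0.70. Of the higher members 4 had an unadjusted p under 0.05, against 3.76% of all genes. Esam, a junction molecule of endothelium, had 31.2, 41 and 81 CPM in ALN gel against 96.2, 153 and 89.9 in Mg-ALN gel (1.15, SE 0.37). Tie1 and Tek, the receptors of the angiopoietin system, had 1.08 (SE 0.44) and 0.63 (SE 0.27), and Plvap, of fenestrated endothelium, 1.12 (SE 0.48). Kdr, the main receptor for VEGF, had 46.6, 61.1 and 82 against 50.7, 124 and 106 and overlapped (0.56, SE 0.38), and Vegfa had 0.71 (SE 0.46). The groups separated in 1 of 16 members, against 6.76% of all genes. The count of 4 became 1 without ALN gel 1, 1 without ALN gel 2, 10 without ALN gel 3, 8 without Mg-ALN gel 1, 1 without Mg-ALN gel 2, 1 without Mg-ALN gel 3 and 1 without the mitochondria-rich pair. Hypoxia and glycolysis genes had 13 of 17 members higher and a median of 0.48, with 0 at an unadjusted p under 0.05.

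Genes of sensory nerve signalling were mostly near the detection limit, with 9 of 14 members tested, 6 of them higher. Ramp2, a receptor partner that vessels use to sense adrenomedullin, had 10.6, 8.41 and 17.7 CPM in ALN gel against 26.9, 37.5 and 25.5 in Mg-ALN gel (1.29, SE 0.35). Calca, which encodes calcitonin and the neuropeptide CGRP, had 0, 1 and 6 counts and 18, 23 and 17 (3.06, SE 1.45).

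Magnesium channels and transporters had 7 of 14 members higher and 7 lower, with a median of 0.06. Trpm7 (ENSRNOG00000057806, chromosome 3, 119259467 to 119330345), the channel-kinase for cellular magnesium entry, had 45, 47.9 and 58.8 CPM in ALN gel against 10.6, 34.8 and 39 in Mg-ALN gel (−0.85, SE 0.41, edgeR adjusted p 0.572). Cnnm3, linked to magnesium transport, had 31.7, 36 and 32.5 against 23.9, 22 and 25.1 (−0.50, SE 0.17). Magt1 had 121, 126 and 90.5 against 72.5, 87.7 and 88.2 (−0.44, SE 0.19). Cnnm3 and Magt1 were the 2 members at an unadjusted p under 0.05, against 5.43% of all genes lower. Slc41a1, a magnesium exporter, had 0.66 (SE 0.40).

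Markers of other tissues varied between libraries of a group as well as between groups. The summed skeletal muscle level was 2149, 106 and 2007 CPM of the unscaled library in ALN gel against 419.9, 332 and 66.7 in Mg-ALN gel, so ALN gel libraries 1 and 3 were above the other 4. Of 13 tested muscle members 12 were lower, with a median of −3.14, and Myh7, the slow fibre myosin, had −5.16 (SE 1.8). B lineage genes had 12 of 13 members lower and a median of −1.96, with scores of 2.67, 1.03 and −1.02 in ALN gel against −0.80, −4.32 and 0.86 in Mg-ALN gel. Cd22, a B cell receptor inhibitor, had −1.51 (SE 0.56). Erythroid genes summed to 8654, 5552 and 2298 against 7708, 707 and 7345 on the same scale, with a median of −0.37, and ALN gel 3 and Mg-ALN gel 2 were the low ones. In CPM of the unscaled library, ALN gel library 2, with the lowest muscle level of its group, had the highest summed osteoclast level of the 6 libraries. In scaled CPM, Acp5 and Ctsk were highest in ALN gel library 1 and Mmp9 in ALN gel library 2. The part of muscle and blood cell content in the osteoclast, cartilage and oxidative phosphorylation values was not tested.

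Macrophage genes had 12 of 15 tested members higher and a median of 0.48, which became −0.33 without Mg-ALN gel library 1. Cd68, a lysosomal glycoprotein of macrophages and osteoclasts, was the 1 member with an unadjusted p under 0.05 and was lower, with 608, 591 and 454 CPM in ALN gel against 375, 274 and 337 in Mg-ALN gel (−0.75, SE 0.26). Lyz2, lysozyme, had 1.5 (SE 1.08), and the 3 listed C1q complement genes lay between 0.04 and 0.29. Summed macrophage levels were 3493, 12362 and 4452 CPM of the unscaled library against 26515, 6245 and 6786, with Mg-ALN gel library 1 the highest. T and NK cell genes had a median of 0.07, marrow adipocyte genes −0.50 with Lipe, hormone-sensitive lipase, at 1.04 (SE 0.28), cell cycle genes 0.18, and ATF4 and serine-folate genes 0.07.

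**Figure D5:**
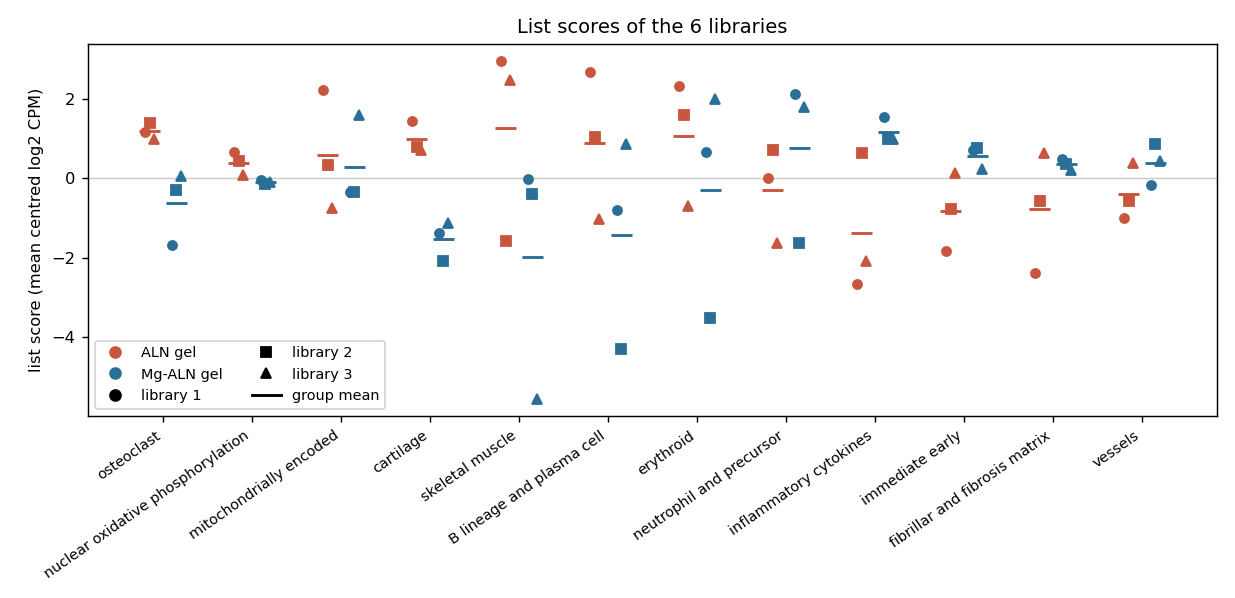
List score of each of the 6 libraries for 12 gene lists (vertical axis, mean of log2 CPM centred on each gene's mean over the 9 libraries), with ALN gel in red and Mg-ALN gel in blue; bars are group means and shapes the library numbers. Osteoclast, nuclear oxidative phosphorylation, cartilage, inflammatory and immediate early scores separate without overlap, and the other 7 overlap.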

How the data were processed

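RNA of 9 libraries was sequenced, 3 per group. Per the file headers, the authors deposited 1 table of whole-number read counts for 35360 genes, 2477 of them loci without a biotype, and no normalization had been applied to these counts. Tools that appear in the submitters' processing notes, with no role given, are featureCounts 1.5.0-p3, HISAT2 2.0.5, edgeR 3.22.5, DESeq2 1.20.0, StringTie 1.3.3b and fastp. Neither the genome build nor the strand setting is given in the sources used here. Values of overlapping, antisense and near-identical genes are therefore uncertain. The text gives gene coordinates as the deposited table lists them. FPKM values were not used.

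Counts were fitted in R 4.3.3 with edgeR 4.0.16 (quasi-likelihood test, filterByExpr, TMM scaling, 1 coefficient per group, 9 libraries), which left 15460 genes, with p-values adjusted by Benjamini-Hochberg over all of them and a threshold of 0.05. CPM are relative to the TMM-scaled library. Each standard error is the size of the log2 fold change over the root of its F statistic. Per-library log2 CPM used a prior count of 0.5. An exact permutation test of 3 against 3 libraries cannot go below p = 0.1. DESeq2 1.42.0, which left 94 adjusted p-values undefined, and limma 3.58.1 (voom with quality weights) served as alternatives, beside RLE scaling, no filter, a filter at 1 CPM, mitochondrial genes left out of the scaling, the replicate block, the 6 libraries alone and each library left out. The fit was also run on simulated data, but the outcome is not reported here, so no power or rate of false calls is given. No 2 libraries of the comparison agreed within sampling noise, the smallest chi-square per degree of freedom being 79.4. That value belonged to a pair across the groups, ALN gel 3 and Mg-ALN gel 2. The smallest within a group was 130, for ALN gel 2 and ALN gel 3.

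The genes and the 36 lists were chosen with earlier results of these data known. Of 596 list entries 585 were matched, 569 by symbol, 13 by mitochondrial name and 3 through a RefSeq table. The rule for named genes took 13 fixed genes, up to 10 protein-coding genes a direction with the smallest p, no overlap and at least 2 CPM on average in the higher group, and up to 4 members of each list with the smallest p. Other list members were named after their values were seen. A few genes that the rule takes are not reported here.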

Additional observations from a re-analysis of the deposited data

How the results depend on the processing

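EdgeR called 0 genes under each of its alternatives, DESeq2 called 178 and limma-voom 2, and the cause was not tested. Genes at an unadjusted p under 0.05 numbered 874 higher and 1009 lower with DESeq2 and 1019 and 1301 with limma-voom. With 1 library left out, from 402 to 851 genes were higher and from 614 to 974 lower. The low-count filter was rerun for each alternative that kept it, so the tested members of a list can differ between fits. With the 6 libraries fitted alone the median was −0.51 for cartilage (reported −1.81). Without the mitochondria-rich pair, an alternative chosen after seeing the data, the counts of members were 3 for V-ATPase and lysosome (reported 7), 1 for nuclear oxidative phosphorylation (reported 10), 2 for inflammatory cytokines (reported 4), 2 for immediate early (reported 5), 0 for cartilage (reported 4), 1 for TGF-beta response (reported 4), 1 for matrix proteases and TIMPs (reported 4), 1 for vessels (reported 4) and 2 for neutrophil and precursor (reported 4), the median was −3.26 for cartilage (reported −1.81), the values were −0.017 for Atp6v0d1 (reported 0.20), 0.23 for Elane (reported −0.33) and −0.046 for Mpo (reported 0.36). With limma-voom and quality weights the counts of members were 0 for cartilage (reported 4) and 12 for vessels (reported 4), the medians were 0.12 for small GTPases and prenylation (reported 0.028), −0.0099 for osteoclast coupling factors (reported 0.35), −0.51 for macrophage (reported 0.48) and −0.32 for ATF4 and serine-folate (reported 0.065), the values were 0.039 for Acan (reported −1.09), −3.01 for Bglap (reported 0.081), −0.54 for Ccn2 (reported 0.093), −0.20 for Ctsd (reported 0.38), −0.62 for Dmp1 (reported 0.19), 0.99 for Fn1 (reported −0.17), −0.045 for Lamp1 (reported 0.32), −3.59 for Mpo (reported 0.36) and −0.24 for Tfeb (reported 0.22). With the replicate number as a block the counts of members were 1 for myofibroblast and pericyte (reported 3) and 7 for vessels (reported 4), the median was 3.2 for inflammatory cytokines (reported 1.9), the values were −0.77 for Bglap (reported 0.081), 1.01 for Fn1 (reported −0.17), −1.03 for Mpo (reported 0.36) and 0.020 for Tfe3 (reported −0.058). With DESeq2 the counts of members were 7 for cartilage (reported 4), 7 for myofibroblast and pericyte (reported 3) and 7 for TGF-beta response (reported 4). With no filter on low counts the count of members was 6 for myofibroblast and pericyte (reported 3). Across the fits that leave out 1 library, the counts of members at an unadjusted p under 0.05 ranged from 5 to 13 for osteoclast, 3 to 10 for nuclear oxidative phosphorylation, 3 to 10 for inflammatory cytokines, 1 to 7 for immediate early, 2 to 7 for cartilage, 0 to 7 for myofibroblast and pericyte, 1 to 6 for TGF-beta response, 2 to 4 for matrix proteases and TIMPs, 1 to 10 for vessels and 1 to 7 for neutrophil and precursor. Across the fits that leave out 1 library, the medians ranged from −0.20 to 0.16 for V-ATPase and lysosome, −3.48 to −1.45 for cartilage, −0.30 to −0.054 for mevalonate and sterol synthesis, −0.0095 to 0.17 for small GTPases and prenylation, 0.053 to 0.59 for osteoclast coupling factors, −0.092 to 0.46 for RANKL and CSF1 signals, −0.33 to 0.86 for macrophage, 1.4 to 3.97 for inflammatory cytokines and −0.21 to 0.20 for ATF4 and serine-folate. Across the fits that leave out 1 library, the values of genes that changed sign ranged from −1.57 to 0.81 for Acan, −0.032 to 0.53 for Atp6v0d1, −0.42 to 0.59 for Axin2, −0.98 to 0.71 for Bglap, −1.34 to 1.07 for Ccn2, −0.12 to 0.75 for Ctsd, −0.55 to 1.43 for Dmp1, −1.0 to 0.30 for Elane, −0.71 to 1.98 for Fn1, −0.95 to 1.21 for Mpo, −0.36 to 0.30 for Tfe3, −0.16 to 0.53 for Tfeb and −0.48 to 0.32 for Tfec. Same-numbered ALN gel and Mg-ALN gel libraries had correlations of 0.130, −0.120 and −0.127 between their deviations from the group means. With 3 libraries a group these values cannot decide whether the numbers pair the libraries, and the labels do not say. The replicate block gave 758 genes higher and 839 lower at an unadjusted p under 0.05. Of 2913 fold changes of the 162 genes named, over 18 alternatives, 38 had the other sign, in 14 genes, each of them with an unadjusted p above 0.05. The biological coefficient of variation between libraries of a group was 51.4%, which limits what 3 libraries a group can call.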

Other observations

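Genes for folding and secreting collagen were mostly higher in Mg-ALN gel. The 3 gene groups described here were listed after the values of all genes had been seen, so their counts describe these libraries and support nothing else. Of 21 tested genes of collagen folding and secretion 18 were higher and 3 lower, with a median of 0.50, 6 had an unadjusted p under 0.05 and 6 separated without overlap, against 3.76% and 6.76% of all genes. Serpinh1, the collagen chaperone HSP47, had 781, 911 and 1305 CPM in ALN gel against 2168, 2027 and 1909 in Mg-ALN gel (1.03, SE 0.30, DESeq2 adjusted p 0.00942). Rcn3, a calcium-binding protein of the endoplasmic reticulum, had 162, 176 and 225 against 376, 353 and 322 (0.90, SE 0.24). Creb3l1, a membrane-bound factor that activates collagen secretion genes in osteoblasts, had 44.1, 106 and 78 against 173, 168 and 161 (1.14, SE 0.30). DESeq2 called these 3 genes. The prolyl 3-hydroxylation complex had 0.96 (SE 0.27) for P3h1 and 0.99 (SE 0.35) for Crtap. The deposited table names the Crtap entry Crtapl1, and it was matched through a RefSeq synonym. The count of 6 became 10 without ALN gel 3.

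A list of lysosomal hydrolases, other lysosomal genes and factors of the MiT/TFE family had 14 of 15 members lower and a median of −1.0, with 8 at an unadjusted p under 0.05 and 8 without overlap, against 5.43% and 9.77% of all genes. Mitf, the family member that works with osteoclast factors, had 72.5, 78.6 and 58 CPM in ALN gel against 20, 33.1 and 41.5 in Mg-ALN gel (−1.14, SE 0.28, DESeq2 adjusted p 0.0369). Rragd, a small GTPase of the lysosomal nutrient sensor, had 16.5, 15.1 and 12.6 against 5.99, 3.45 and 5.91 (−1.53, SE 0.32). Fuca2, a fucosidase, had 42.4, 23.5 and 23.3 against 7.02, 13 and 13 (−1.43, SE 0.35). DESeq2 called 6 of the 15, Idua (α-iduronidase, −1.13, SE 0.25), Glb1 (β-galactosidase, −1.0, SE 0.27) and Pikfyve (a lipid kinase of endosomes, −0.97, SE 0.25) among them. Of the 4 factors of the family in the list, Mitf alone had an unadjusted p under 0.05, and the groups overlapped for Tfe3, Tfec and Tfeb, with values of −0.06, −0.15 and 0.22. 

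Acute phase and endothelial activation genes were higher in 12 of 14 members, with a median of 1.66, 9 at an unadjusted p under 0.05 and 11 without overlap, against 3.76% and 6.76% of all genes. Serpina3n, an acute phase protease inhibitor, had 13.6, 30.7 and 49.3 CPM in ALN gel against 229, 311 and 135 in Mg-ALN gel (2.85, SE 0.67, DESeq2 adjusted p 0.00237). Ptx3, the long pentraxin, had 7.76, 21.6 and 8.99 against 89.2, 39.7 and 107 (2.62, SE 0.77). Selp, the P-selectin of activated endothelium and platelets, had 1.4, 24.1 and 27.1 against 74.5, 161 and 262 (3.24, SE 1.06). DESeq2 called these genes and Cebpd, a transcription factor of the acute phase (1.78, SE 0.43). The other endothelial selectin, Sele, had 1.58 (SE 0.50). The endothelial adhesion genes Icam1 and Vcam1 had 0.80 (SE 0.44) and −0.54 (SE 0.37), neither with an unadjusted p under 0.05. Vcam1 and Steap4, at −0.87 (SE 0.40), were the lower members, and the groups overlapped for both. The count of 9 became 5 without the mitochondria-rich pair.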
